A study of Drosophila melanogaster with 18 samples.

Results

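Tightly spaced same-strand initiation sites are positions at which transcription started on the same strand as a neighbouring start 22 to 50 bp away. They were taken from a list of 13218 single-base sites mapped across the Drosophila melanogaster genome by STAP-seq. In this assay sheared genomic DNA is cloned into a reporter plasmid, and sequencing of transcript 5′ ends shows where within a fragment transcription began. A site was kept if its nearest other site on the same chromosome and strand lay 22 to 50 bp away and no site on the opposite strand lay within 250 bp. Of the 12469 sites on chromosomes without Het in their name, 875 met this rule (7.02%, Wilson 95% interval 6.58 to 7.48). They are called tight sites here, and sites joined by such gaps form a cluster. Wilson intervals over sites, here and below, treat each site as independent, so for clustered sites they can be too narrow.

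Labels of the following samples point to the genome-wide list: 2 samples with the zfh1 enhancer in the plasmid and 2 samples with no enhancer, all from S2 cells, a cultured fly line of embryonic origin. A second list, of 753 sites, is named by 3 samples with the zfh1 enhancer and 1 sample with no enhancer, also in S2 cells, in which the fragments came from bacterial artificial chromosomes (BACs), cloned stretches of the genome. The fragments in all these samples came from DNA of y; cn bw sp embryos or of BACs and were selected at about 100 to 250 bp, so both sites of a tight cluster can lie on 1 fragment. The other 10 of the 18 samples, BAC libraries with the ssp3, ncm, ham or sgl enhancer in S2 cells or the tj enhancer in ovarian somatic cells, were not analysed here. Each list holds 1 set of positions, strands and serial numbers, with no level, no sample column and no replicate. The effect of the enhancer, the spread between samples and the depth therefore have no values here, and the labelled cell type could not be checked against marker genes.

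A core promoter is the short stretch of DNA around a transcription start at which RNA polymerase II and the general transcription factors assemble. In flies many core promoters fire from a narrow window set by elements such as the initiator, which overlaps the start itself, the TATA box upstream of it and the downstream promoter element. Other promoters, often those of broadly active genes, use several starts spread over a wider window. STAP-seq asks where a stretch of DNA can start transcription outside its place in the chromosome. Positions are 1-based in build dm3. No sequence or annotation of that build was used here, so the sites carry no gene, exon, intron or UTR here.

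Most tight sites came in pairs. The 875 sites fell into 424 clusters, of which 391 were pairs of tight sites, holding 782 sites or 89.4% of the set. A further 27 clusters held 3 tight sites and 2 clusters held 4. In 4 clusters only 1 site met the rule, 3 of them clusters of 2 and 1 of them a cluster of 3, because an opposite-strand site lay within 250 bp of the other members. No 2 same-strand sites on chromosomes without Het in their name lay closer than 22 bp, so the lower bound of the rule removed no site. The rule on the opposite strand left out 228 of the 1103 sites that had a same-strand neighbour within 50 bp. At the edge of the spacing rule, 16 tight sites had their nearest neighbour at 50 bp and 22 sites just outside it had theirs at 51 bp. At the edge of the opposite-strand rule, 1 tight site had its nearest opposite-strand site at 251 to 260 bp and 1 site was left out with one at 241 to 250 bp.

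The clusters with the most sites show how the starts were laid out. On 2L, minus strand, 4 sites covered 6411203 to 6411325 with gaps of 37, 45 and 40 bp from the upstream to the downstream end. Their serial numbers in the list were 465, 11226, 7022 and 3858 in the same direction. On the X chromosome, plus strand, 4 sites covered 18409459 to 18409545 with gaps of 23, 31 and 32 bp and numbers 8235, 6956, 10729 and 6440. Among the clusters of 3, the first by position lay on 2L, minus strand, from 7732603 to 7732668, with gaps of 36 and 29 bp and numbers 1665, 7638 and 11259. The numbers within the clusters on 2L came from distant parts of the list, while those on X stayed between 6440 and 10729. The 27 clusters of 3 tight sites spanned 55 to 95 bp with a median of 69 bp.

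The spacing within pairs is what chose them, so it is given as a description without a test. The median spacing was 33 bp, with quartiles of 27 and 42 bp. Pairs at 22 to 30 bp numbered 148 (37.9%), those at 31 to 40 bp 134 (34.3%) and those at 41 to 50 bp 109 (27.9%). The spacings were not used evenly. A spacing of 27 bp occurred in 41 pairs (10.5%), more than any other, while the other 28 spacings held 5 to 24 pairs with a median of 11. After 27 bp came 31 bp with 24 pairs, 39 bp with 22 and 26 bp with 21, and the rarest spacing was 37 bp with 5.

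**Figure D1:**
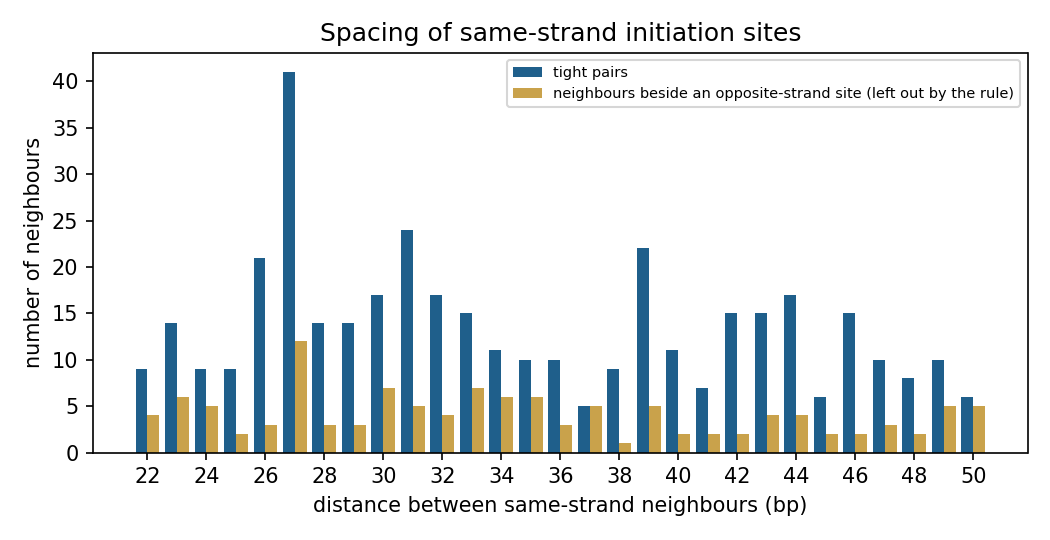
Number of same-strand neighbours at each distance from 22 to 50 bp, for the 391 tight pairs (blue) and for the 120 gaps of clusters without a tight site, which have an opposite-strand site within 250 bp (ochre). A distance of 27 bp holds the tallest bar of both sets, 41 pairs and 12 gaps.

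The same spacing led among same-strand neighbours that the rule had left out. Of the 120 gaps in clusters beside opposite-strand sites, 12 were 27 bp and no other distance held more than 7. Their median was 33 bp, the same value as in the tight pairs. Clusters of 3 or 4 tight sites had 3 gaps of 27 bp, fewer than the 5 gaps each of 31 and 37 bp. On the Het scaffolds, which carry mapped heterochromatic sequence in dm3, the rule gave 7 pairs at 35 to 47 bp and none at 27 bp. The BAC list held 23 tight pairs of its own by the same rule, with a median of 36 bp and 2 pairs at 27 bp, a number too small to show a preferred distance.

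The pairs at 27 bp were spread over the genome. There were 10 on 2L, 10 on 3L, 8 on 3R, 7 on 2R and 6 on X, with 18 on the plus and 23 on the minus strand. On 3L, plus strand, such a pair lay at 8759544 and 8759571 with numbers 161 and 2153 from the upstream to the downstream site. On X, plus strand, another lay at 9588194 and 9588221 with numbers 5778 and 3247. The closest pair with the lowest numbers lay 22 bp apart on 3R, plus strand, at 26214553 and 26214575, with numbers 2043 and 4972. The widest, at 50 bp, lay on 2L, minus strand, at 6716182 and 6716132, with numbers 534 and 5815.

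Tight clusters were found on each of the 5 large arms and on chromosome 4, and their share of sites did not differ detectably between arms. Arm 3R held 108 clusters and 222 tight sites (7.23% of its sites), 2R held 86 and 174 (6.76%), X held 78 and 162 (7.77%), 3L held 76 and 158 (6.27%), 2L held 73 and 152 (7.12%) and chromosome 4 held 3 and 7 (8.43%). Set against isolated sites, which had no other site on either strand within 250 bp and numbered 9029, no arm differed from the other arms past the threshold of 0.05 (Fisher's exact test over clusters, two-sided, Benjamini-Hochberg adjusted over 6, smallest adjusted p = 0.937). Over the distance from first to last site of an arm, clusters per Mb ranged from 2.55 on chromosome 4 (exact Poisson 95% interval 0.526 to 7.45) and 3.11 on 3L (2.45 to 3.89) to 3.88 on 3R (3.18 to 4.68) and 4.07 on 2R (3.25 to 5.02). These intervals overlapped and cover counting error only. The median distance from one tight cluster to the next on either strand was 171.4 kb. The widest stretch without one was 2013 kb on 2L, between 15552683 and 17566084, and 2 neighbouring clusters out of 418 lay within 1000 bp of each other.

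Use of the 2 strands did not differ past the threshold. Of the 424 clusters 217 were on the plus and 207 on the minus strand (51.2% plus, Wilson 95% interval 46.4 to 55.9, exact binomial p = 0.662, two-sided). By arm, 3L had 32 plus-strand and 44 minus-strand clusters and X had 44 and 34.

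At 251 to 1000 bp, the share of tight clusters with a further site did not differ from that of isolated sites past the threshold. Closer sites cannot be compared, since isolated sites have none within 250 bp by definition. For the 420 clusters made up of tight sites alone, 9.29% (39 clusters) had another same-strand site 251 to 1000 bp away, against 9.04% (816) of isolated sites (Fisher's exact p = 0.862). An opposite-strand site at 251 to 1000 bp was present for 9.05% (38) of the clusters and 8.07% (729) of the isolated sites (Fisher's exact p = 0.465). It lay upstream, in the divergent arrangement, for 21 clusters and 423 isolated sites, and downstream for 17 clusters and 336 isolated sites. After Benjamini-Hochberg adjustment over these 4 comparisons every p was 0.862. The Wilson 95% intervals for clusters, 6.87 to 12.4% for the same strand and 6.66 to 12.2% for the opposite strand, do not show the surroundings to be equal. In 50 of the 420 clusters (11.9%) a further same-strand site followed at 51 to 250 bp, upstream of 29 clusters and downstream of 24, with 3 counted on both sides. Only the nearest same-strand site on each side was used. These 50 clusters therefore could not count at 251 to 1000 bp on that side, while isolated sites lost no side in this way. The same-strand share of 9.29% can thus be too low for clusters.

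Each site carries a serial number from 1 to 13218, but the labels do not say what it ranks. Within stretches of the list the numbers ran in the text order of chromosome and position, so there they reflect position. In tight pairs, for example, the numbers from 12287 to 12797 were all on 3R. Tight sites were found over the whole range, from number 29 to number 13210, with a median of 5987 (quartiles 2774 and 9367). Same-strand sites 51 to 250 bp apart, 924 in number, had a median of 5825 and isolated sites one of 6755. Taking the leftmost site of each cluster, the median was 6260 in the 424 tight clusters, against 6755 in the 9029 isolated sites (difference -495.5, permutation p = 0.125, two-sided, adjusted over 2 comparisons 0.251). It was 5918 in the 476 clusters of sites 51 to 250 bp apart (difference 341.5, permutation p = 0.512, adjusted 0.512). These clusters were joined at gaps of at most 250 bp and could include a tight cluster, so the groups can overlap. Neither difference passed the threshold. With the list cut by number into 10 equal parts, tight sites made up 9.22% (7.74 to 11.0) of the lowest-numbered sites, 1 to 1269, and 6.66% (5.41 to 8.18) of the highest-numbered, 11902 to 13218, with the lowest share, 5.61% (4.47 to 7.03), at 10584 to 11901. This fall was not particular to tight sites. Same-strand sites 51 to 250 bp apart made up 9.78% of the lowest-numbered part and 6.90% of the highest-numbered. Their lowest share, 5.13%, was at 9275 to 10583. The highest-numbered parts also differ by arm, since in tight pairs no number on 2R was above 11729.

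Within a pair, the lower number had a median of 2972 and the higher one a median of 9065, and the median difference was 4471, against 4628 in the 384 pairs 51 to 250 bp apart. In 211 of the 391 pairs (54.0%) one number was at most 6609, the middle of the list, and the other above it, against 220 (57.3%) of the wider pairs. Both numbers were at most 6609 in 111 pairs (28.4%) and both above it in 69 (17.6%). Among numbers 1 to 1000, 80 tight pairs had a site, and in 1 of them the other site was there too, against 80 and 2 of the wider pairs. That tight pair lay on 3R, minus strand, at 26413021 and 26412990, 31 bp apart, with numbers 162 and 712, the lowest sum of all pairs. Across pairs the 2 numbers had a Pearson's r of -0.15 and a Spearman's rho of -0.15 (n = 391 pairs from 1 list, given as a description). The wider pairs had values of -0.23 for both.

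The site with the lower number was more often the downstream one. It was downstream in 233 pairs and upstream in 158 (59.6% downstream, Wilson 95% interval 54.7 to 64.3, exact binomial p = 0.000175, two-sided). The downstream site had a median number of 4846 and the upstream site one of 6683. This held on the plus strand, with 122 of 202 pairs (60.4%, exact p = 0.00381), and on the minus strand, with 111 of 189 (58.7%, exact p = 0.0197). In 14 pairs the numbers were consecutive and ran in the text order of positions. That order puts the lower number upstream on the plus strand and downstream on the minus strand. Their split, 5 downstream and 9 upstream, was therefore fixed by strand. Without them the share was 60.5% (228 of 377, exact p = 5.56e-05). By arm the share was 67.1% on 2R (55 of 82), on 3L in 42 of 70 pairs, on 2L 58.8% (40 of 68), on 3R 57.3% (55 of 96) and on X 56.2% (41 of 73), while both pairs on chromosome 4 had the lower number upstream.

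**Figure D2:**
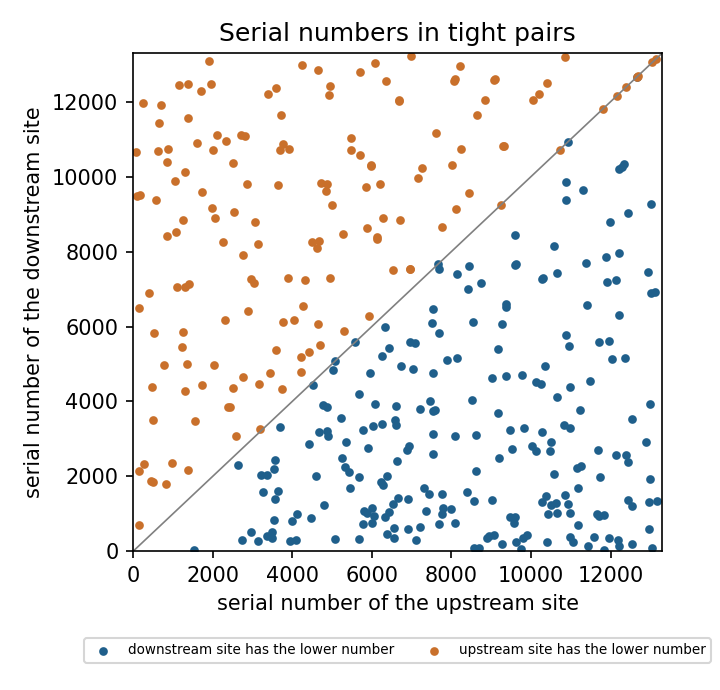
Serial number of the downstream site against that of the upstream site for the 391 tight pairs; the line marks equal numbers. The 233 pairs below the line have the lower number downstream and the 158 above it upstream, and 1 pair has both numbers among 1 to 1000.

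Among tight pairs the share was highest in those that held a low number. Where the lower number was 29 to 1240 it was downstream in 69 of 98 pairs (70.4%, 60.7 to 78.5). At 1242 to 2972 this was 60 of 98 (61.2%, 51.3 to 70.3), at 3031 to 5490 it was 56 of 97 (57.7%, 47.8 to 67.1) and at 5551 to 13148 it was 48 of 98 (49.0%, 39.3 to 58.7). Pairs 51 to 250 bp apart did not show this gradient, with 55.6% (55 of 99), 59.8% (55 of 92), 50.5% (53 of 105) and 62.8% (54 of 86) over the same ranges, the largest share in the highest range. Most of the 14 tight pairs whose order was fixed by strand had their lower number at 5551 to 13148. Such pairs were not removed from either set. The ranges were set after the order had been seen, so these shares are given as a description, and the difference between the 2 sets was not tested. An example is the pair on 3R, plus strand, at 7198473 and 7198512, 39 bp apart, in which the upstream site had number 1527 and the downstream site number 29, the lowest of any tight site. Of the 5 pairs with the lowest summed numbers it was the only one in this order. The other 4 had the lower number upstream: the pairs on 3R at 26413021 and on 3L at 8759544 given above, a pair on 2R, minus strand, at 3693071 and 3693035 with numbers 493 and 1839, and a pair on 2L, minus strand, at 13513421 and 13513373 with numbers 462 and 1886.

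The order was not particular to tight pairs. Of the pairs 51 to 250 bp apart 218 of 384 had the lower number downstream (56.8%, 51.8 to 61.6, exact binomial p = 0.00916). Unlike in tight pairs, this passed the threshold only on the minus strand, with 111 of 183 pairs (60.7%, exact p = 0.00483). On the plus strand it was 107 of 201 (53.2%, exact p = 0.397), and the difference between strands was not tested. Tight pairs did not differ from all pairs 51 to 250 bp apart past the threshold (Fisher's exact p = 0.466). By spacing, the share was 56.8% at 22 to 30 bp (84 of 148, exact p = 0.118), 63.4% at 31 to 40 bp (85 of 134, exact p = 0.00237) and 58.7% at 41 to 50 bp (64 of 109, exact p = 0.0842). Beyond these it was 57.7% at 51 to 75 bp (86 of 149), 67.1% at 76 to 100 bp (51 of 76), 50.7% at 101 to 150 bp (37 of 73) and 51.2% at 151 to 250 bp (44 of 86). Pairs at exactly 27 bp had the lower number downstream in 16 of 41 (39.02%, 25.7 to 54.3, exact p = 0.211), which did not differ from an equal split past the threshold. All other tight pairs had it downstream in 217 of 350 (62.0%, 56.8 to 66.9, exact p = 8.32e-06), and the difference between 27 bp and the other spacings was not tested. At 31 bp it was downstream in 16 of 24 pairs (exact p = 0.152), at 39 bp in 17 of 22 (exact p = 0.0169) and at 26 bp in 15 of 21 (exact p = 0.0784). These single spacings were picked after their counts had been seen, and their p-values are not adjusted. On the Het scaffolds, outside the set, all 7 tight pairs had the lower number downstream (exact binomial p = 0.0156).

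**Figure D3:**
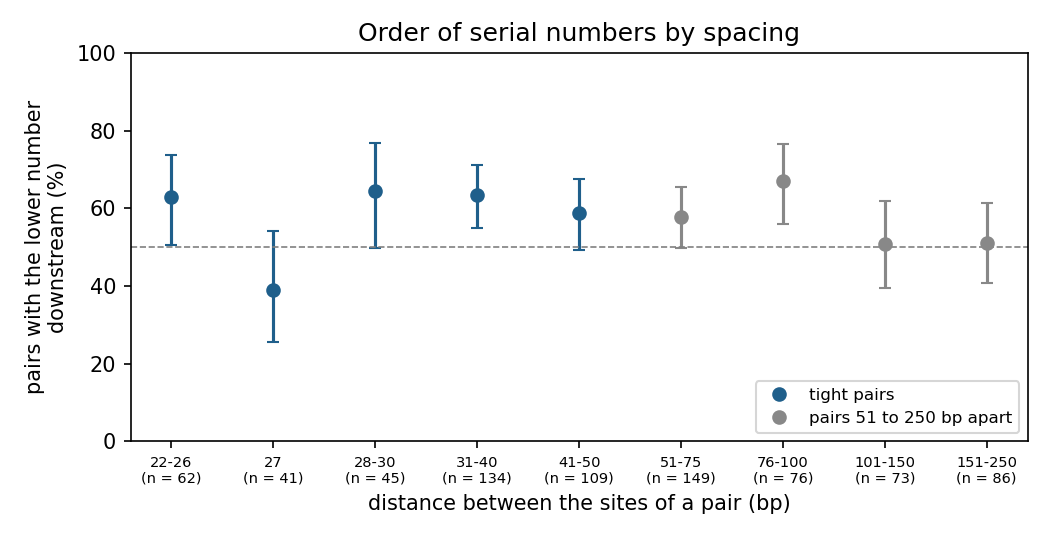
Share of pairs in which the downstream site has the lower serial number, by distance between the sites, with Wilson 95% intervals; tight pairs are blue, pairs 51 to 250 bp apart grey, and the dashed line marks equal shares. The point for 27 bp is at 39.02% with an interval that spans the line, and the other tight bins lie between 58.7% and 64.4%.

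In clusters of 3 tight sites no position led in holding the lowest number. The lowest number was at the upstream site in 8, the middle site in 10 and the downstream site in 9 of 27 clusters. The highest number was upstream in 11, in the middle in 5 and downstream in 11. Median numbers were 6807 upstream, 4301 in the middle and 5428 downstream. These differences were not tested.

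The BAC list came from other libraries, which the rule did not use, so it shows which tight sites were found again. Its regions, stretches of BAC sites without a gap above 60 kb, were 34 in number and held 41 tight sites and 19 whole clusters. Each region began and ended at a BAC site. Genome-wide sites of a BAC beyond these ends were not counted and could not be shared, which can raise the shares of every class. At the same base and strand 24 of the 41 tight sites were in the BAC list (58.5%, Wilson 95% interval 43.4 to 72.2), against 293 of 465 isolated sites (63.0%, 58.5 to 67.3) and 32 of 47 same-strand sites 51 to 250 bp apart (68.1%, 53.8 to 79.6). Counted once per cluster at the leftmost site, 10 of 19 were shared (52.6%, 31.7 to 72.7). This did not differ past the threshold from isolated sites (Fisher's exact p = 0.469, adjusted over 2 comparisons 0.550) or from the leftmost sites of clusters at 51 to 250 bp, 15 of 24 (Fisher's exact p = 0.550, adjusted 0.550). The interval of the tight share is wide, so differences of 10 percentage points could not be seen with so few clusters.

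Of the 19 clusters 8 had all sites in the BAC list, 6 had some of them and 5 had none. With 1-to-1 matching within 5 bp the tight sites shared stayed at 24, all of them at an offset of 0, while among isolated sites the count became 335 (72.0%). Shares were lower at higher serial numbers. In the regions, 11 of 13 tight sites numbered 545 to 4556 were shared (84.6%, 57.8 to 95.7), 7 of 11 numbered 4581 to 8312 (63.6%, 35.4 to 84.8) and 6 of 17 numbered 8318 to 13212 (35.3%, 17.3 to 58.7). Isolated sites had 77.8%, 73.3% and 35.6% over the same ranges.

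**Figure D4:**
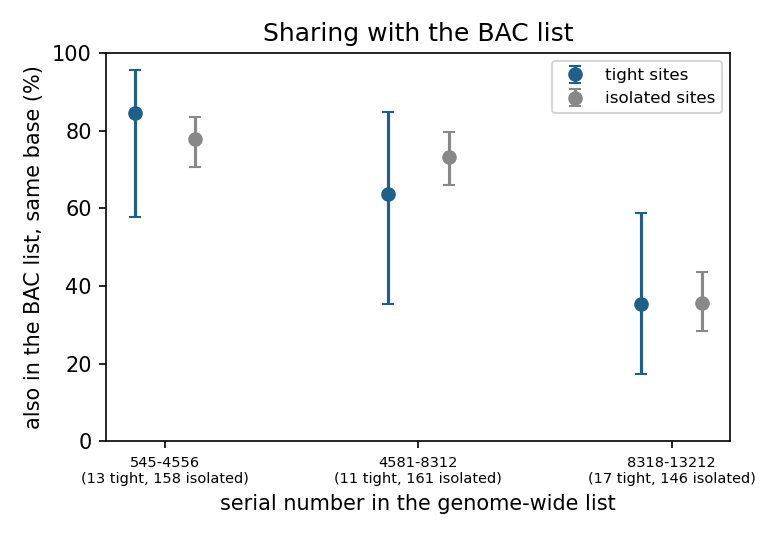
Share of sites in the BAC regions that are also in the BAC list at the same base and strand, by serial number in the genome-wide list, with Wilson 95% intervals (tight sites blue, isolated sites grey). Tight sites run at 84.6%, 63.6% and 35.3% over the 3 ranges and isolated sites at 77.8%, 73.3% and 35.6%.

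Where both sites of a pair were found again, the order of their numbers was the same in both lists for all but 1 pair, a count that did not pass the threshold. There were 8 such pairs, and 7 had their lower number on the same side in both, 6 downstream and 1 upstream (exact binomial p = 0.0703, two-sided; the smallest p that 8 pairs allow is 0.00781). On 2L, plus strand, the pair at 523697 and 523736 had upstream and downstream numbers 5224 and 3555 genome-wide and 171 and 20 among the BAC sites. On 2R, plus strand, the pair at 3510709 and 3510749 had 8616 and 3099, and 488 and 38 in the BAC list. On X, plus strand, the 27 bp pair at 9588194 and 9588221 had 5778 and 3247, and 290 and 139. The single pair with the lower number upstream in both lists lay on 3R, minus strand, at 12797958 and 12797929, with 3167 and 4460, and 339 and 515. The pair that changed order lay on 3L, plus strand, at 13031349 and 13031391, with 8743 and 7172 genome-wide and the nearly equal numbers 252 and 264 in the BAC list.

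Other tight clusters were found again in part. On 3L, plus strand, the pair at 15581965 and 15581997, with numbers 4511 and 4431, had 1 of its sites in the BAC list, and so did the 27 bp pair on 3L, minus strand, at 3787986 and 3787959, with numbers 2776 and 7917. In the 4 pairs with 1 shared site the shared one had the lower number in 2. By the same rule the BAC list itself held 50 tight sites in 25 clusters, 6.64% of its 753 sites (5.07 to 8.65), against 6.25% (4.64 to 8.37) of the 656 genome-wide sites that those regions hold. Sites tight in both lists numbered 18, which was 36.0% of the BAC tight sites and 43.9% of the genome-wide tight sites there. Of the 23 tight pairs of the BAC list, 9 had both sites in the genome-wide list, 6 had 1 and 8 had neither. In these 23 pairs the lower BAC number was downstream in 12 (52.2%, 33.0 to 70.8, exact binomial p = 1), and this interval spans 50% as well as the 59.6% found genome-wide.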

How the data were processed

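Initiation sites were listed after STAP-seq in S2 cells. The lists deposited by the authors give no level; each row holds the chromosome, coordinates of 1 base, strand and a numbered name. How sites were called, merged and numbered, and in which condition, is not stated in the labels, and depth is unknown. The submitters' processing notes give the build as dm3 and name Bowtie 0.12.9 and CASAVA 1.9.1, with no step attached to either.

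From the positions, distances, clusters (same-strand gaps of at most 50 bp), orders and matches to the BAC list were computed in Python 3.11.15 with pandas 2.3.3 and numpy 2.4.6, tested with scipy 1.17.1 and plotted with matplotlib 3.10.9. Upstream and downstream follow the direction of transcription. Tests were two-sided exact binomial, Fisher's exact and permutation tests (100000 draws), over clusters or pairs, with Benjamini-Hochberg adjustment where stated. They run across sites of 1 list, which are not replicates of a sample. The functions recovered all made pairs in a simulated list. That list held no cluster of 3 or more sites and no opposite-strand site within 250 bp, so these cases were not tried.

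Members, lists and tests were chosen with earlier results of these data known. Clusters were named by number of sites, by lowest summed serial numbers, as the closest and the widest pair and, in BAC regions, by lowest summed numbers. Other BAC pairs were named after their values were seen. Motifs were not analysed, since no dm3 sequence was used here.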

Additional observations from a re-analysis of the deposited data

How the results depend on the processing

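No paired analysis was possible because no column belongs to a sample. Of 56 alternatives 45 kept the direction and side of the threshold, or stayed within 1.5 times a count or the interval of a value. Some of the 45 had little or no room to change. Joining clusters at gaps up to 100 bp could not merge any, since neighbouring tight clusters were at least 718 bp apart. Site counts without 1 arm kept most sites. Leaving out the highest-numbered 25% of sites, there were 573 tight sites and 277 clusters, where removing sites by construction removes neighbours. The share of pairs with the lower number upstream, 40.4% in all pairs, was 43.2% at 22 to 30 bp, 41.3% at 41 to 50 bp and 47.8% in the BAC list, none past the threshold, with fewer pairs each. Without 1 arm in turn it stayed between 39.6% and 42.4%, past the threshold each time. The share of tight sites in the BAC list was 73.7% for clusters with any site shared, 42.1% for clusters with all shared, 84.6% in the lowest-numbered and 35.3% in the highest-numbered of the 3 number ranges. The median number was 2862 for the lowest-numbered and 8984 for the highest-numbered site of each cluster, by construction. Strand, run, 27 bp and BAC list alternatives of the order, its repeat without the highest-numbered sites, and the leftmost site were chosen after seeing the data. The motif comparison and its alternatives were not run.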
